A study of Mus musculus with 5 samples.

Results

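CM4-dominant spots are the spots of infarcted mouse heart sections in which CM4, a state of immature cardiomyocytes, had the highest of 11 cell type scores and at least 1000 UMIs (unique molecular identifiers, the count of distinct captured RNA molecules) were detected. Of the 1860 spots of the 3 infarcted sections, 202 met this rule, among 3364 spots in the series. They were 40 of 376 spots at day 3 after myocardial infarction (MI), 76 of 693 in replicate 1 at day 7 and 86 of 791 in replicate 2. Their share of a section was therefore nearly constant, at 10.64%, 10.97% and 10.87%. They are described here against the 614 other spots of the same sections that were not dominated by CM1, the most abundant cardiomyocyte state, and against 114 CM4-dominant spots of 2 sham sections. No UMI minimum removed a CM4-dominant spot from an MI section.

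Spatial transcriptomes (Visium) were measured in transverse heart sections of wild-type C57BL/6 mice. Visium reads polyadenylated RNA at fixed positions of a tissue slice, and each position, or spot, can cover cells of more than 1 type. The left anterior descending coronary artery was ligated on postnatal day 1 to make the infarct, and the control animals had sham surgery. The slices, 10 µm thick, came from a level 200 µm below the suture and a matched level in sham hearts, with 1 MI and 1 sham section at day 3, and 2 MI and 1 sham section at day 7. All animals carried the wild-type genotype, so neither surgery group held a transgene or a deletion. According to the study each section was a biological sample of its own, with the MI replicates independent of each other. The p-values measure the spread between these sections only.

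The newborn mouse heart can replace lost muscle for a few days after birth, and the muscle that does so comes from cardiomyocytes that were already there. Heart muscle cells under load or injury return to part of the fetal programme, with natriuretic peptides (Nppa, Nppb), skeletal muscle actin (Acta1) and stretch-responsive proteins of the sarcomere and of the discs that join the cells (Ankrd1, Xirp2). Around an infarct they lie beside macrophages that clear dead tissue and fibroblasts that lay down collagen and elastic fibres. In a spot that spans several cells, fewer cells of a type and less RNA per cell cannot be told apart.

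The scores had been transferred by the authors from an earlier single-nucleus reference, so they estimate composition and do not count cells. The median CM4 score of the members was 0.495 at day 3, 0.529 in day 7 replicate 1 and 0.544 in replicate 2, with the lowest member at 0.218 and the highest at 0.905. The score exceeded 0.5 or equalled it in 111 of the 202. The runner-up was CM1 in 100 spots, endothelial (EC) in 42, fibroblast (FB) in 34, CM5 in 10, CM2 in 6 and macrophage in 5. In 54 members the lead over the runner-up was under 0.1, and in 25 spots outside the set CM4 was second by less than 0.1. At the boundary, the closest member led by 0.00154 and the closest spot outside trailed by 0.00129. No barcode was CM4-dominant in more than 1 MI section.

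The sections held 11396022 to 37492530 UMIs. CM4-dominant spots were deeper than the other non-CM1 spots of their section in all 3 MI hearts: the median was 41057 against 34968 UMIs at day 3, 57265.5 against 52050 in day 7 replicate 1 and 25189.5 against 18794 in replicate 2. The ratio averaged 1.20 ± 0.12 (SD, n = 3), and was 0.934 and 1.06 in the sham sections at day 3 and day 7. Mitochondrial transcripts took 9.70%, 20.8% and 14.1% of the values of CM4-dominant spots in the MI sections in that order, against 9.59%, 21.2% and 11.7% of the other spots. In the sham sections they took 22.9% and 20.5% against 13.5% and 14.8%, and the 4 summed haemoglobin genes stood at 8589 and 19897 CPM (the values of each spot scaled to a common total over the shared genes) against 3997 and 5804 CPM. In the MI sections haemoglobin was at 6521 against 13468 CPM at day 3, 9614 against 8183 CPM in replicate 1 and 10788 against 12529 CPM in replicate 2. Both shares were thus higher in sham CM4-dominant spots than in the other spots of their sections, while the MI sections did not share a side for either. The comparisons with sham, given further on, were also run without these genes. Xist, the transcript of the silenced X chromosome, was listed at 48.5 CPM in day 7 MI replicate 1 and 39.0 CPM in the sham day 3 section. The Y-linked Ddx3y was listed at 31.6 to 35.6 CPM in the other 3 sections.

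**Figure D1:**
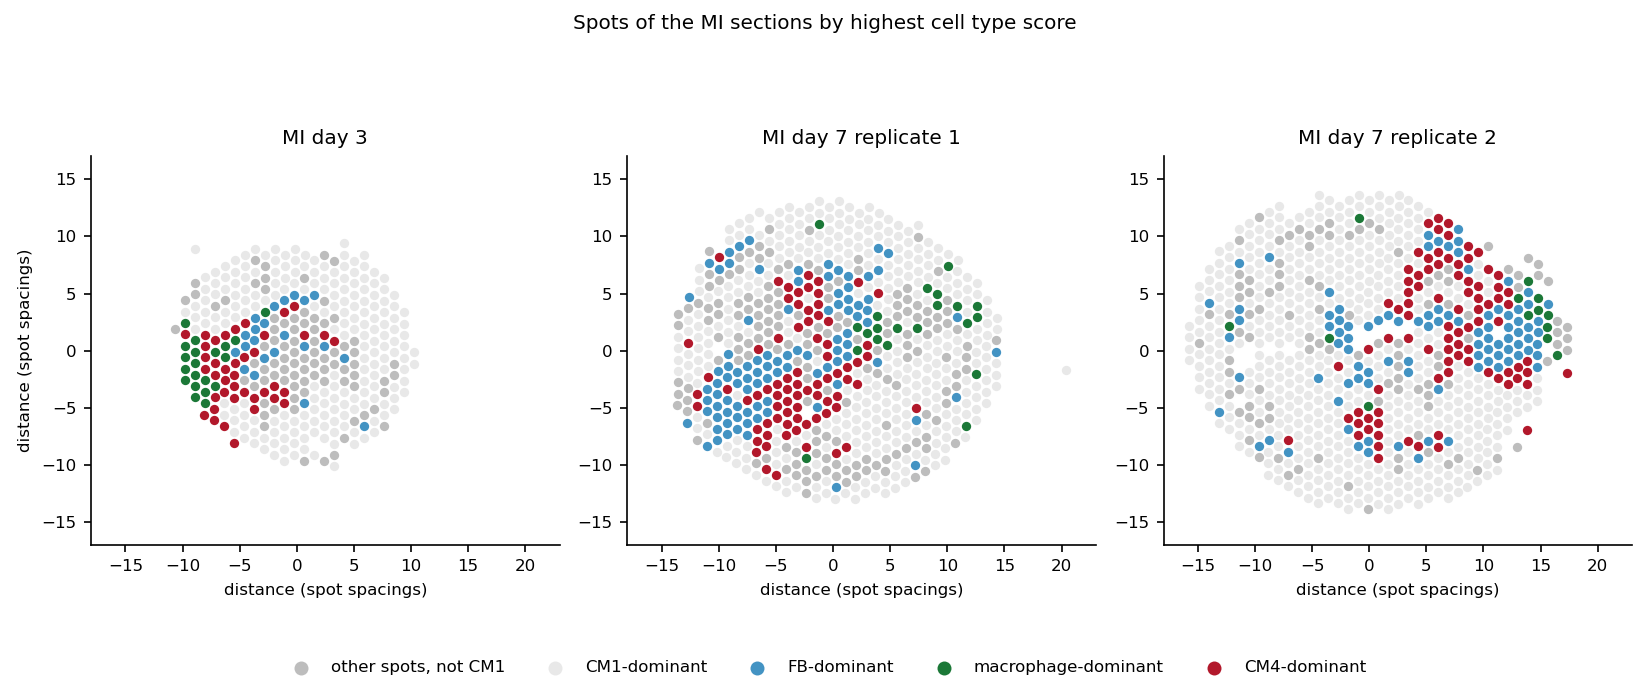
Position of the spots of the 3 MI sections, in multiples of the spacing between neighbouring spots from the centre of the section. Each point is a spot, coloured by its highest cell type score; the 40, 76 and 86 CM4-dominant spots (red) gather in patches beside FB-dominant spots (blue) and, at day 3, macrophage-dominant spots (green).

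CM4-dominant spots lay together. Of their nearest neighbours, 42.1% at day 3, 42.2% in day 7 replicate 1 and 43.0% in replicate 2 were also CM4-dominant, against shares of 10.64%, 10.97% and 10.87% of their sections. In the sham sections the value was 28.1% at day 3 and 17.7% at day 7, against section shares of 10.3% and 6.04%. The largest connected patch held 32 of 40 spots (80.0%) at day 3, 42 of 76 (55.3%) in replicate 1 and 45 of 86 (52.3%) in replicate 2, against 17.9% and 10.3% in the sham sections. Spots with no CM4-dominant neighbour numbered 4, 10 and 12 in the MI sections and 13 and 27 in the sham sections. The MI and sham ranges did not overlap for either measure, with p = 0.2 (exact permutation test, two-sided, 3 against 2 sections), which is the smallest p this design allows, and adjusted p = 0.233 over 7 position measures.

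Fibroblast- and macrophage-dominant spots were frequent neighbours of the patches. At least 1 FB- or macrophage-dominant neighbour was found for 27 of the 40 members at day 3 (67.5%), 47 of 76 in day 7 replicate 1 (61.8%) and 55 of 86 in replicate 2 (64.0%), against 19.1%, 37.8% and 26.8% of the remaining spots of the same sections. In the sham hearts this contrast was smaller, at 75.0% against 63.4% and 72.4% against 69.3%. The neighbouring type changed with day. At day 3 macrophage-dominant spots made up 23.5% of the neighbours outside the set, against 5.95% of all outside spots, whereas at day 7 they made up 2.28% against 3.40% and 1.81% against 1.84%. FB-dominant spots made up 18.2% of outside neighbours at day 3, 31.2% in replicate 1 and 33.3% in replicate 2, against 6.55%, 15.2% and 13.3% of outside spots. In sham they made up more of the outside neighbours, 35.4% and 39.9%, against 25.0% and 29.5% of outside spots, with no overlap between MI and sham (exact permutation p = 0.2, the smallest possible). The MI minus sham difference, -10.1 percentage points, was -3.51 with a second ring of neighbours and -5.43 without MI day 3. CM1-dominant spots were under-represented among the neighbours in each MI section (25.0%, 31.9% and 48.6% against 59.5%, 54.6% and 68.9%). One section at day 3 leaves the change with day without a replicate.

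The location within the section differed between surgery groups. Spots with fewer than 6 neighbours are called outline or edge spots here, whether they border the outside or a gap within the section. They were 12.5% of the members at day 3, 1.32% in day 7 replicate 1 and 15.1% in replicate 2, but 57.1% and 43.1% of the sham CM4-dominant spots. Among other non-CM1 spots the values were 15.2%, 8.36% and 24.3% in MI and 8.23% and 9.25% in sham. The groups of CM4-dominant spots did not overlap (exact permutation p = 0.2, the smallest possible), and the same p was obtained for the median distance to the outline, 3.24, 6.59 and 2.33 spacings against 0 and 1.01. The share of members bordering FB- or macrophage-dominant spots and both outline measures were chosen after the data were seen. The median distance of a member to the nearest FB-dominant spot was 2.01, 1.01 and 1.01 spacings, and 1.00 and 1.01 in sham (exact permutation p = 0.6).

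**Figure D2:**
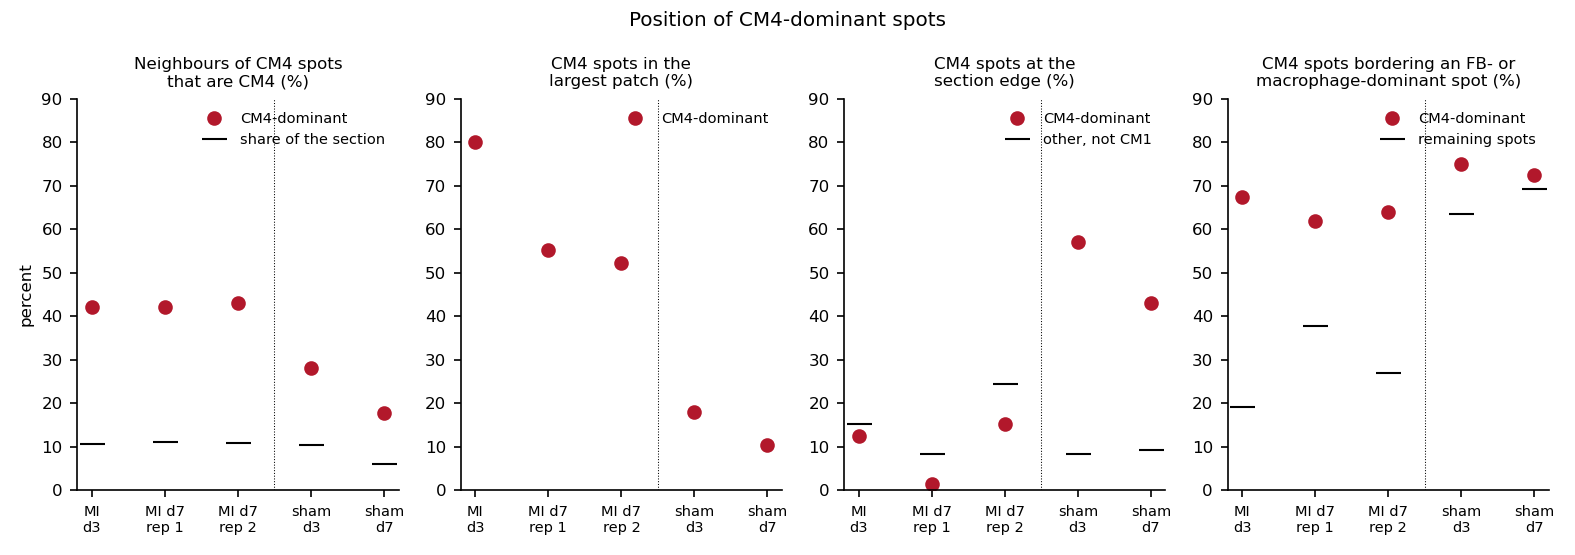
Position measures of CM4-dominant spots by section, in percent. Red points are CM4-dominant spots and black bars the reference named in each panel, where the remaining spots leave out FB- and macrophage-dominant ones. In MI sections 42.1% to 43.0% of neighbours and in sham sections 17.7% and 28.1% were CM4-dominant, while the share at the section edge was 57.1% and 43.1% in sham sections.

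The label was checked against its 5 genes. Against CM1-dominant spots all 5 were higher on average over the 3 MI sections: the mean log2 difference of CPM + 1 was 2.90 ± 0.44 (SD, n = 3) for Nppa, 2.41 ± 1.11 for Clu, 1.96 ± 0.79 for Acta1, 1.51 ± 0.48 for Mfap4 and 0.83 ± 0.39 for Acta2. Against the other non-CM1 spots, only Nppa and Acta1 were higher in each of the 3 sections, and Mfap4, a microfibril-associated protein of the matrix, was lower in each by mean. By spot medians Clu and Acta2 were also higher in each section, Clu at 2941, 72.6 and 232 CPM against 785, 57.2 and 183 CPM, and Mfap4 was higher at day 3 (361 against 314 CPM) and lower at day 7. Of the 5 general cardiomyocyte markers (Tnnt2, Myh6, Actn2, Ttn and Tnnc1), 4 were higher by mean than in the other spots in all 3 sections and none was lower. By spot medians Tnnt2 was at 5150, 4572 and 4404 CPM in members against 4456, 4631 and 4489 CPM, so it was lower at day 7. The medians of Myh6 were 4618, 7544 and 6650 CPM against 4606, 7537 and 6798 CPM. Markers of other types were lower in all 3 sections for 7 of 7 macrophage, 5 of 6 fibroblast, 3 of 5 activated fibroblast, 5 of 5 endocardial, 3 of 3 epicardial and 2 of 3 neutrophil genes, where 18.7% of all genes were lower and 17.2% higher. Of the smooth muscle markers 1 of 4 was lower, endothelial and pericyte markers had 1 of 5 in each direction, the 4 haemoglobin genes had none, and the atrial markers Myl7 and Myl4 were both higher (median 0.37). None of these defining markers was absent from the members, however, and the summed macrophage markers stood at 958 CPM at day 3, 150 CPM in replicate 1 and 189 CPM in replicate 2. The score was computed from the same expression values, so these differences were built in, and they are given without a test.

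The natriuretic peptides and skeletal actin were among the 4 genes with the largest mean difference on one side in all 3 sections at 50 CPM or more, and their upstream sequences are printed further on for that reason. Nppa encodes atrial natriuretic peptide, a hormone released by stretched heart muscle. Its CPM in CM4-dominant spots was 22578 at day 3, 336 in day 7 replicate 1 and 4390 in replicate 2, and in the other non-CM1 spots 11309, 235 and 1935. The level at day 3 was thus higher than in either day 7 section, while the log2 difference between spot kinds was 1.00, 0.52 and 1.18 (mean 0.90 ± 0.34, SD, n = 3). Spot by spot at day 3, Nppa ranged from 3047 over a median of 21156 to 44386 CPM, and 90% of members lay above the median of the other spots, 93.4% in replicate 1 and 95.3% in replicate 2. In the sham sections the relation was the opposite, at 313 against 717 CPM and 340 against 356 CPM.

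Nppb, brain natriuretic peptide, was at 693, 224 and 470 CPM in the members of the MI sections at day 3, in replicate 1 and in replicate 2, and at 196, 132 and 212 CPM in the other spots. The log2 difference was 1.81, 0.75 and 1.14, with a mean of 1.24 ± 0.54 (SD, n = 3), the largest among genes at 50 CPM or more that were higher in all 3 sections. In sham CM4-dominant spots it was at 86.1 and 238 CPM. Nppb exceeded the median of the other spots in 97.5%, 84.2% and 91.9% of members. Acta1, skeletal actin, was at 734, 89.6 and 830 CPM against 162, 81.8 and 363 CPM in other spots. Its log2 difference was 2.17, 0.13 and 1.19 (mean 1.16 ± 1.02, SD, n = 3), so that the 2 day 7 hearts disagreed and replicate 1 was close to no difference.

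Other muscle genes were higher as well. Nmrk2, a kinase of the NAD+ salvage pathway, was at 64.1, 13.6 and 94.7 CPM against 25.6, 8.14 and 41.6 CPM, a log2 difference of 1.04 ± 0.33 (SD, n = 3). Xirp2, an actin-binding protein of the intercalated disc, was at 214, 39.1 and 106 CPM against 54.0, 33.3 and 75.2 CPM, a difference of 0.89 ± 0.94 that came mainly from day 3. Ankrd1, a stretch-responsive repeat protein of the sarcomere and nucleus, was at 2129, 1342 and 2097 CPM against 929, 1022 and 1559 CPM, a difference of 0.67 ± 0.45. Ankrd1 lay above the median of the other spots in 97.5%, 88.2% and 81.4% of members. Clic5, a chloride channel protein, had 0.67 ± 0.50 and Des, the desmin filament, 0.53 ± 0.45. No gene was higher by a log2 difference of at least 1 in all 3 sections (0%, 0 of 13288 genes described), so the genes above were chosen after their values were seen, as the largest on one side in all 3. At a difference of at least 0.58, 15 genes were higher (0.113% of all) and 80 lower (0.602%).

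The 250 bases before the start of 4 of these genes are printed from the RefSeq annotation of GRCm38.p6, 5′ to 3′ on the coding strand, with capitals for matches to motifs of muscle and stress regulators. The motifs were the CArG box bound by serum response factor, the MCAT motif CATTCC bound by TEAD factors, and the antioxidant response element TGACNNNGC bound by CNC factors such as Nrf1, searched on both strands. Nppa lies at chr4:148000472-148000721 (plus strand), Nppb at chr4:147985650-147985899 (plus), Acta1 at chr8:123894776-123895025 (minus) and Ankrd1 at chr19:36119845-36120094 (minus).
Nppa: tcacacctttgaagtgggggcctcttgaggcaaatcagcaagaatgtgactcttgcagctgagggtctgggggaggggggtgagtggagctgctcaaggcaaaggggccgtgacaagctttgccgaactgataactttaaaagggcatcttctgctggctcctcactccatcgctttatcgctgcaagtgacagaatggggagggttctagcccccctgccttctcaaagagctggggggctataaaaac
Nppb: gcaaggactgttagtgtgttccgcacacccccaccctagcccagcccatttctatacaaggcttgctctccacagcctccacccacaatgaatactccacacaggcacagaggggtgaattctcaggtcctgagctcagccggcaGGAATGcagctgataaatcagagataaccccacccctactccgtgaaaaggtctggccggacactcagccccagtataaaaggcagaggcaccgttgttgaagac
Acta1: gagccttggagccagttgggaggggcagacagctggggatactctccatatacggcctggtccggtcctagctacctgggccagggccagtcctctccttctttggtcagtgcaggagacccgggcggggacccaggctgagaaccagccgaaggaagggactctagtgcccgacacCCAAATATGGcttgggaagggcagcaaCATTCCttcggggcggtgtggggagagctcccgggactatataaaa
Ankrd1: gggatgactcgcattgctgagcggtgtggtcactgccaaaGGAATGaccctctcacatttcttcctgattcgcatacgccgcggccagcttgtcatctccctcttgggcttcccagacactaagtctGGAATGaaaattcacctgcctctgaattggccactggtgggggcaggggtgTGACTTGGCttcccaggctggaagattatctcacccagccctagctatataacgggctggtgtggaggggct
Nppa had no match in this window. Nppb had 1 MCAT match at -105, Acta1 a CArG box at -73 and an MCAT at -46, and Ankrd1 2 MCAT matches and an antioxidant response element at -72. Nmrk2 and Xirp2, which had larger differences than Ankrd1, are not printed. Nmrk2 had 1 match, an antioxidant response element at -31, and Xirp2 had none. The matches printed do not overlap one another. In the 300 bases from 250 before to 50 after the start, 1 of the 12 genes higher in CM4-dominant spots that had a promoter in the table held a CArG box, against 1.60% of 10362 genes. An MCAT was held by 4 of 12 (Nppb, Acta1, Ankrd1 and Bex1) against 14.6% of genes, and an antioxidant response element by 6 of 12 (Nmrk2, Clic5, Ankrd1, Adamtsl5, Fbxo40 and Des) against 16.9%. Among 12 genes lower in CM4-dominant spots the counts were 1, 1 and 1. These are descriptions of letters in a window and not of binding.

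Genes lower in CM4-dominant spots than in other non-CM1 spots included some of complement, phagocytes and the elastic matrix. C3, the central complement protein, was at 39.4, 2.15 and 37.6 CPM against 95.9, 13.2 and 276 CPM, a log2 difference of -1.26, -2.18 and -2.84 between means. It was detected in 52.5%, 10.5% and 41.9% of members and in 56.8%, 11.3% and 36.9% of other spots, and the spot medians were near equal (27.8 CPM in both kinds at day 3 and 0 at day 7), so the lower mean came with higher levels in a part of the other spots. Lgals3, galectin-3 of macrophages, was at 121, 1.95 and 9.50 CPM against 248, 7.29 and 30.7 CPM, a difference of -1.03, -1.49 and -1.59. By spot medians the day 3 order was the reverse, at 97.6 CPM in members and 55.8 CPM in other spots. These were among the 8 genes lower by at least 1 in all 3 sections (0.0602% of all), of which 1 each was on the phagocyte and complement lists and none on the elastic fibre list. Eln, elastin, was at 469, 239 and 599 CPM against 852, 751 and 1584 CPM, with a mean difference of -1.30 ± 0.40 (SD, n = 3). Lyz2, the lysozyme of macrophages, had a mean difference of -1.17 ± 0.58 and Apoe, an apolipoprotein, -1.12 ± 0.59. By spot medians at day 3, Lyz2 was higher in members, at 499.6 CPM, than in other spots (268.0 CPM) and CM1-dominant spots (113.7 CPM), with 60% of members above the median of the other spots. At day 7 the medians of Lyz2 were lower in members, at 56.7 against 73.1 CPM and 47.4 against 93.7 CPM. The median of Eln was lower in members in each section, at 265.9, 152.5 and 354.0 CPM against 506.7, 208.6 and 627.9 CPM.

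**Figure D3:**
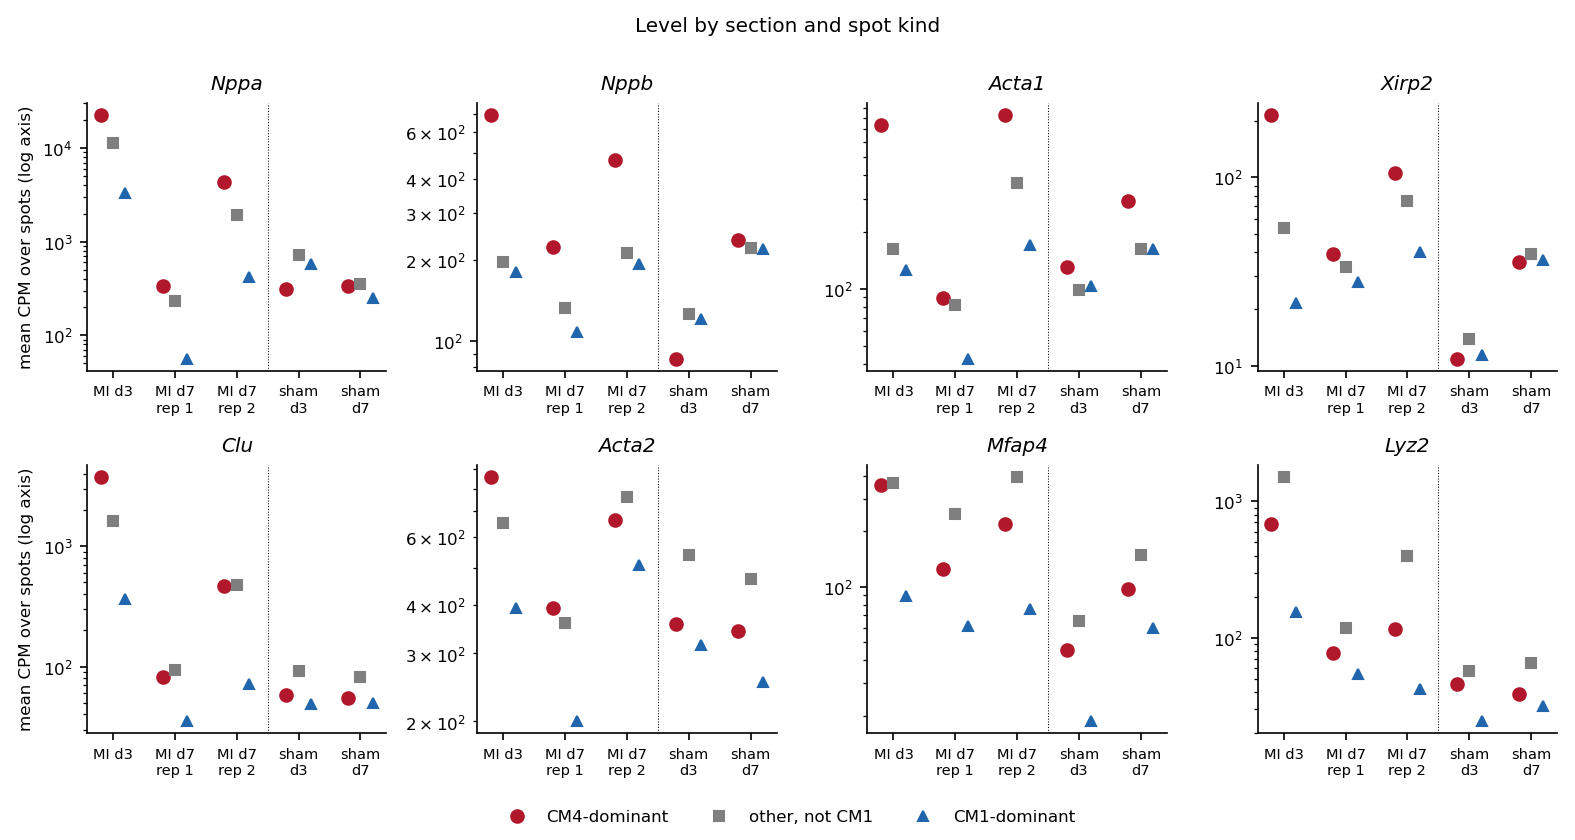
Mean CPM over spots (log axis) of 8 genes in each section, for CM4-dominant spots (circles), other non-CM1 spots (squares) and CM1-dominant spots (triangles). Nppa and Nppb were higher in CM4-dominant than in other spots in each MI section, with Nppa at 22578 against 11309 CPM at day 3; in the sham sections Nppa was lower, at 313 against 717 CPM at day 3.

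By gene group and against the other non-CM1 spots, muscle stress genes were higher in members and immune and matrix genes lower. Of the fetal and stress cardiomyocyte genes, 11 of 16 were higher than in other spots in all 3 sections and none was lower (median log2 difference 0.31, against -0.01 over all genes), where 17.2% of all genes were higher and 18.7% lower on this measure. The small heat shock and sarcomere stress genes had 6 of 12 higher (median 0.28) and the glycolysis genes 13 of 18 higher and 1 lower (0.19). Of 24 oxidative phosphorylation genes, 19 were higher in all 3 sections, with a small median of 0.12. Genes of mature cardiomyocytes split, 7 of 20 higher and 3 lower, with a median of 0.07. Against CM1-dominant spots both lists were lower in members, with medians of -0.15 and -0.27 in the same order. Phagocyte genes were lower in 16 of 16 (median -0.85), complement genes in 8 of 11 (-0.82), elastic fibre genes in 11 of 13 (-0.61), matricellular genes in 8 of 15 with 2 higher (-0.42) and fibrillar collagens in 7 of 14 (-0.40). At day 3 the median was -0.07 for matricellular genes and -0.02 for fibrillar collagens. Against CM1-dominant spots these lists were higher in members. Their medians were 0.83, 0.82, 0.92, 1.05 and 0.70 in the same order, where all genes had 0.18. Intercalated disc genes had 7 of 14 higher and none lower, and hypoxia response genes 5 of 13 and none.

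Genes of the smooth muscle programme did not set the members apart as a group, with 4 of 13 higher, 1 lower and a median of -0.02. Acta2, smooth muscle actin, was at 859, 393 and 667 CPM against 654, 361 and 763 CPM in other spots, a difference of 0.39, 0.12 and -0.19 between means, while its spot medians, 651, 331 and 644 CPM against 584, 287 and 632 CPM, were higher in members in each section. Cell cycle genes were 2 of 20 higher and 1 lower in all 3 sections, with a median of -0.20 at day 3 and of 0.24 and 0.28 at day 7. Proteasome subunits, which Nrf1 controls, had 3 of 31 higher and 4 lower (median -0.02), antioxidant genes 5 of 25 higher and 8 lower (-0.02), and CNC transcription factor genes 1 of 9 higher and 3 lower (-0.12). Nfe2l1, the gene of Nrf1, was at 127, 109 and 104 CPM in the members and 112, 114 and 128 CPM in other spots. On the log2 scale Nfe2l1 differed by 0.19, -0.06 and -0.29, with no side shared by the 3 sections. The study measured the enrichment of Nrf1 in CM4 against other cardiomyocyte populations, whereas this comparison leaves out CM1-dominant spots. The spot medians of Nfe2l1 were 119, 109 and 93.0 CPM in members against 88.9, 92.1 and 94.5 CPM in CM1-dominant spots. List medians against CM1-dominant spots were 0.10 for proteasome, 0.18 for antioxidant and 0.15 for CNC genes, where all genes had 0.18.

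Other lists were described in the same way. Endoplasmic reticulum chaperones and integrated stress response genes, which fold secreted proteins and answer to their misfolding, had 1 of 18 higher and 9 lower in all 3 sections (median -0.20), TGF-beta signalling genes 2 of 14 higher and 5 lower (-0.27), and basement membrane genes 2 of 11 higher and 6 lower (-0.10). Fatty acid oxidation genes had 10 of 21 higher and 2 lower (0.10), SRF targets 6 of 18 higher and 3 lower (0.12), and calcium handling genes 4 of 14 higher and 1 lower (0.04). Against CM1-dominant spots the median of fatty acid oxidation genes was -0.25. The counts were even for YAP targets, 2 of 10 in each direction, and close to it for interferon-stimulated genes, 2 of 10 higher and 3 lower. None of the 13 mitochondrially encoded genes lay on the same side in all 3 sections. Against CM1-dominant spots their median was -0.51.

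**Figure D4:**
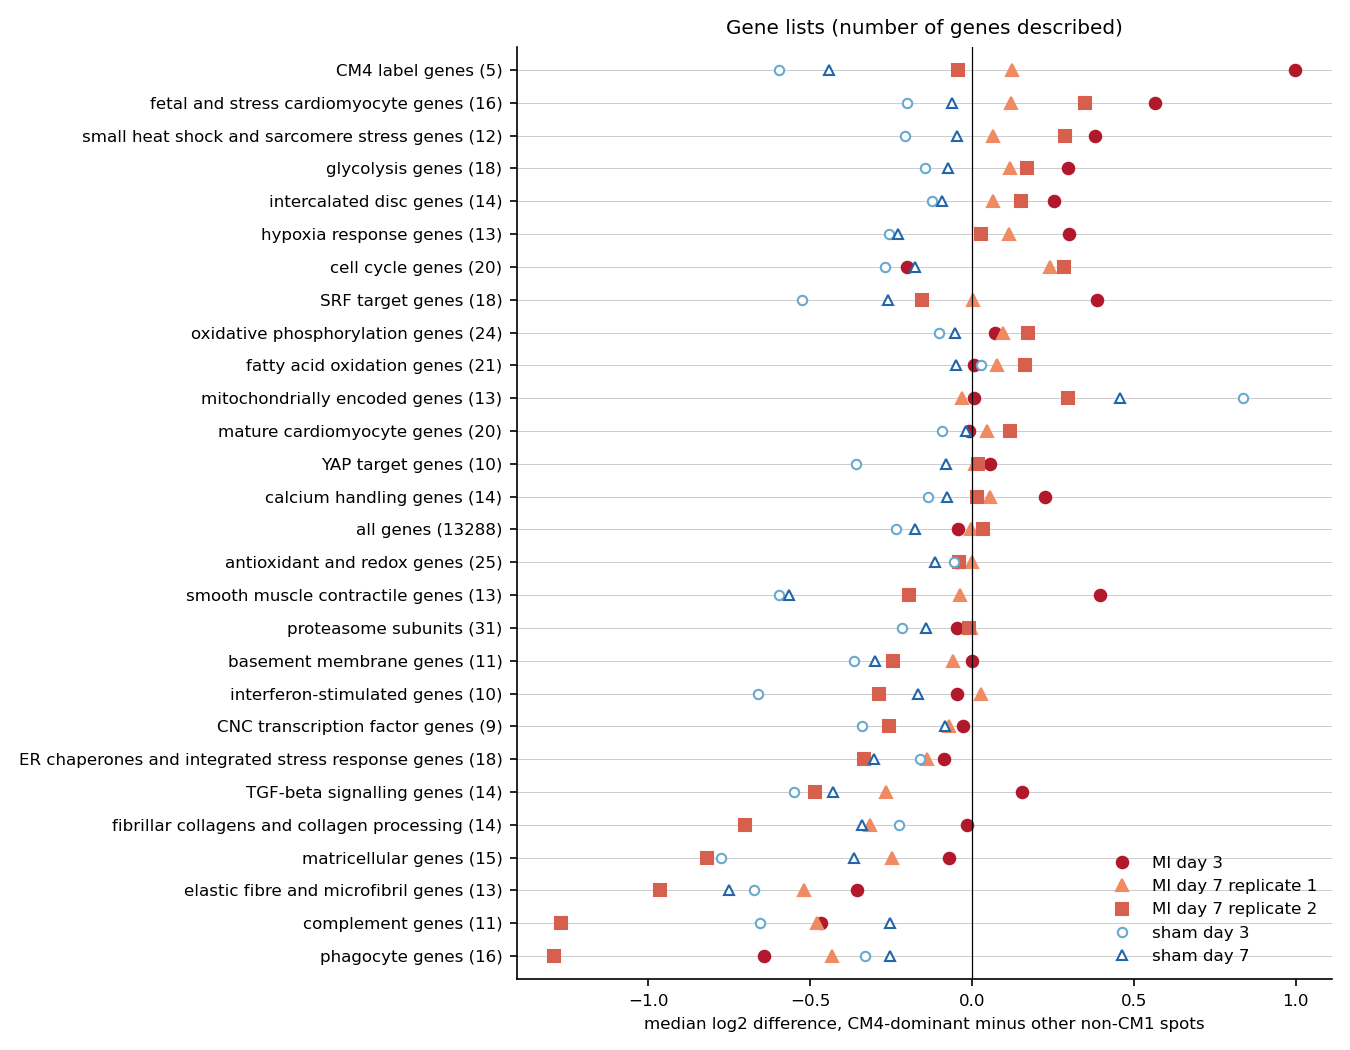
Median log2 difference between CM4-dominant and other non-CM1 spots over the genes of each list, by section (filled symbols MI, open symbols sham), with the number of genes in parentheses. Fetal and stress cardiomyocyte genes lay right of zero in the MI sections and left of it in both sham sections; phagocyte genes lay left of zero in every section.

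The members also differed from one another by what they bordered. Members with an FB- or macrophage-dominant neighbour were compared with those without, as a description added after the values were seen. At day 3 Clu, clusterin, was at 4769 CPM in bordering members and 1619 CPM in the others, Spp1, osteopontin of macrophages, at 777 and 133 CPM, and Acta1 at 847 and 500 CPM. At day 7 the differences were small in replicate 1, where Clu was at 84.7 and 77.2 CPM, and larger in replicate 2, where Clu was at 549 and 316 CPM and Acta1 at 963 and 595 CPM. Of the 5 label genes, 4 were higher in bordering members in all 3 sections and none was lower (median 0.58), where 16.0% of all genes were higher and 9.91% lower. Genes of mature cardiomyocytes had 10 of 20 lower and 1 higher, oxidative phosphorylation genes 16 of 24 lower and none higher, and phagocyte genes 5 of 16 higher and none lower. Beside these, 5 of 6 fibroblast markers, 4 of 5 activated fibroblast markers, 10 of 14 fibrillar collagen genes and 8 of 11 basement membrane genes were higher in bordering members in all 3 sections, and none of them was lower. Nfe2l1 was at 146 and 89.0 CPM at day 3, 107 and 113 CPM in replicate 1 and 107 and 101 CPM in replicate 2.

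Infarction was then compared with sham within CM4-dominant spots, with limma on the mean of each section, day as a covariate and Benjamini-Hochberg adjustment over 13072 genes. In all, 78 genes rose (0.597%) and 4 fell (0.0306%). The median change over all genes was 0.23 on the log2 scale, and with median-of-ratios scaling it was 0.02, with 32 genes higher and 8 lower, so fold changes are read against this shift. Of the genes that passed, were at 50 CPM or more and were detected in sham, Clu had the largest change: it was at 3745 CPM at day 3 and at 81.8 and 465 CPM in the day 7 replicates, against 57.6 and 55.2 CPM in sham, a log2 change of 3.60 ± 0.71 (SE, adjusted p = 0.0343). This change was 1.81 without either day 3 section and 6.00 without sham day 7, and it kept its call in 4 of 12 refits. The day 7 replicate 1 value was the closest to sham, and the 2 groups did not overlap. Of the label genes Mfap4 also passed, at 358, 125 and 219 CPM against 45.2 and 97.5 CPM (1.70 ± 0.36, adjusted p = 0.0469). The score that chose the members was built from the same values. The choice therefore set the levels of label genes in part, here and in the comparison of days. Nppa did not pass, at 3.69 ± 0.86 and adjusted p = 0.0725, nor did Acta1 (1.02 ± 0.66, adjusted p = 0.48). The count of genes that rose rested on single sections: it was 2 without MI day 7 replicate 2, 661 without replicate 1 and 694 without sham day 7. With the spots on the outline left out, 14 rose and none fell (146 lower at an unadjusted p under 0.05, limma), and Clu (3.38) and Mfap4 (1.63) then had adjusted p = 0.141 and 0.143. Without mitochondrial and haemoglobin genes 16 rose and 2 fell. The sham day 3 table held raw counts and the other tables corrected ones, so that the kind of value differed between sections.

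The genes that rose included phagocyte, complement and elastic fibre members. Lyz2 was at 687 CPM at day 3, 76.4 and 116 CPM at day 7 and 45.3 and 38.2 CPM in sham (2.40 ± 0.39, adjusted p = 0.0161). C1qa, a complement subunit made by macrophages, rose by 1.81 (adjusted p = 0.00862), Tyrobp by 1.67 and Apoe by 1.59, so that 5 of 16 phagocyte genes rose and none fell. Summed macrophage markers in members were 958, 150 and 189 CPM in MI and 103 and 92.6 CPM in sham, and 2 of 7 passed. Of 13 elastic fibre genes 5 rose: Eln (1.37 ± 0.28, adjusted p = 0.0445), Fbln1 (1.26), Loxl1 (1.14), Ltbp2 (2.91) and Mfap4. Eln and Loxl1 kept the call in 4 of 12 refits, Fbln1 in 6 and Mfap4 in 3. Fibroblast markers were higher in MI in 6 of 6 by direction and none passed (5 higher at an unadjusted p under 0.05, limma), and their sum was 6909, 4517 and 5846 CPM in MI and 3961 and 3651 CPM in sham. The part of fibroblasts in these changes was not tested. Thbs4, a matricellular protein, rose from 3.42 and 2.24 CPM in sham to 51.4, 19.6 and 55.1 CPM (3.47 ± 0.39, adjusted p = 0.00122), the only named gene of this contrast to keep its call in all 12 refits, and Cthrc1, made by activated fibroblasts, by 2.44 (adjusted p = 0.0377, with the call kept in 3 of 12 refits). Spp1 was listed at 0 in both sham sections and at 568, 1.70 and 13.8 CPM in MI (adjusted p = 0.0315). Spp1 kept its call in 5 of 12 refits, Tyrobp and Apoe in 6, Lyz2 in 9 and C1qa in 10, and the change of Lyz2 was 1.28 without either day 3 section and 3.89 without sham day 7.

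Among muscle genes, Ankrd1 rose, from 533 and 1009 CPM to 2129, 1342 and 2097 CPM (1.27 ± 0.25, adjusted p = 0.0354), and it was the only 1 of 16 fetal and stress genes to pass. None of the proteasome, antioxidant and CNC genes passed the limma test in either direction, out of 31, 25 and 8 tested; at an unadjusted p under 0.05, 1, 6 and 1 were higher and none was lower. Nfe2l1 was at 127, 109 and 104 CPM in MI and 78.9 and 88.5 CPM in sham (0.45 ± 0.18, adjusted p = 0.248). With any 1 section or outline spots left out or another setting, the adjusted p of Ankrd1 reached up to 0.362. The 4 genes that fell, named after their values were seen, were the haemoglobin genes Hbb-bt (-1.23, adjusted p = 0.0026) and Hba-a1 (-0.96, adjusted p = 0.0484), the chemokine Ccl21a (-4.02) and Lrtm1 (-1.57). Without outline spots the haemoglobin changes were -0.64 (adjusted p = 0.202) and -0.26 (adjusted p = 0.583). Beside this, the 4 summed haemoglobin genes were at 8589 and 19897 CPM in sham CM4-dominant spots and at 6521, 9614 and 10788 CPM in the members.

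The change from day 3 to day 7 was tested in CM4-dominant spots of MI sections, 2 sections against 1, with 1 residual degree of freedom, so that day and animal cannot be told apart. In all 89 genes rose (0.681%) and 215 fell (1.64%), with 59 and 73 under median-of-ratios scaling, which moved the median change over all genes from -0.19 to -0.02. With members limited to a CM4 score of at least 0.5 no gene passed limma's threshold (at an unadjusted p under 0.05, 598 had a positive and 989 a negative change), and with no filter on low values 1 rose and 1 fell. The prior degrees of freedom, which pool the spread over genes, were 13.4 in the first fit, 4.63 with the score minimum and 6.10 with no filter. Without mitochondrial and haemoglobin genes 5 rose and 6 fell. The calls below are those of the first fit. By direction alone, 24 of 24 oxidative phosphorylation genes (median 0.40) and 13 of 13 mitochondrially encoded genes (median 0.87) were higher at day 7. Over all 13072 genes, 4437 were. Some genes of mitochondrial energy supply rose past the threshold. Ckmt2, the mitochondrial creatine kinase, was at 126 CPM at day 3 and 795 and 645 CPM at day 7 (2.50 ± 0.22, SE, adjusted p = 0.000109), Coq8a, a kinase of ubiquinone synthesis, at 112, 378 and 338 CPM (1.66 ± 0.22, adjusted p = 0.00182) and the muscle isoform Cox6a2 at 1193, 2254 and 2625 CPM. Of 20 mature cardiomyocyte genes 6 rose and 1 fell, of 24 oxidative phosphorylation genes 3 rose and none fell, and of 13 mitochondrially encoded genes 1 rose. Tuba8, an alpha tubulin, was at 2.78, 37.3 and 63.9 CPM and had the largest rise (3.72 ± 0.36, adjusted p = 0.000163). In sham CM4-dominant spots, Tuba8 went from 12.4 to 57.9 CPM and Ckmt2 from 182 to 715 CPM.

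Among the 215 genes that fell with day were 13 of 16 phagocyte genes and 5 of 16 fetal and stress cardiomyocyte genes. Nppa fell by 4.21 ± 0.87 (adjusted p = 0.0194), from 22578 to 336 and 4390 CPM, and Clu by 4.25 ± 0.61 (adjusted p = 0.00375). The atrial light chains Myl7 and Myl4 fell by 3.42 and 2.37. These were the 2 atrial markers measured, and their summed level was 193 CPM at day 3 and 22.0 and 39.4 CPM at day 7; the part of atrial muscle in the fall of Nppa was not tested. Myh7, the slow myosin of the fetal ventricle, fell by 1.70 ± 0.24 (adjusted p = 0.00348). Myh7 also went from 1662 to 460 CPM in sham CM4-dominant spots, whereas Nppa there went from 313 to 340 CPM. Cnn1, a smooth muscle calponin, fell by 4.70 ± 0.59, from 184 to 2.63 and 13.0 CPM (adjusted p = 0.00147). No phagocyte gene rose, and those that fell included Lgals3 (4.46 lower), Ctss (3.91 lower) and Trem2 (3.25 lower), beside a macrophage marker sum of 958 CPM at day 3 and 150 and 189 CPM at day 7. Of 15 matricellular genes 6 fell, including Spp1 and Ccn2, and 1 rose, and 6 of 18 SRF targets and 4 of 13 smooth muscle genes fell, while 1 smooth muscle gene rose.

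The sham sections give the same day change without infarction, 1 section against 1 and with no test, between a table of raw counts at day 3 and one of corrected counts at day 7. Of the 89 genes that rose in MI, 61 went up from sham day 3 to sham day 7 and 24 by at least 1 on the log2 scale. Of the 215 that fell, 137 went down and 31 by at least 1, where 7487 of all 13072 genes moved in the same direction in both. The median sham change was 0.47 for the risers against 1.63 in MI, and -0.24 for those that fell against -2.06.

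**Figure D5:**
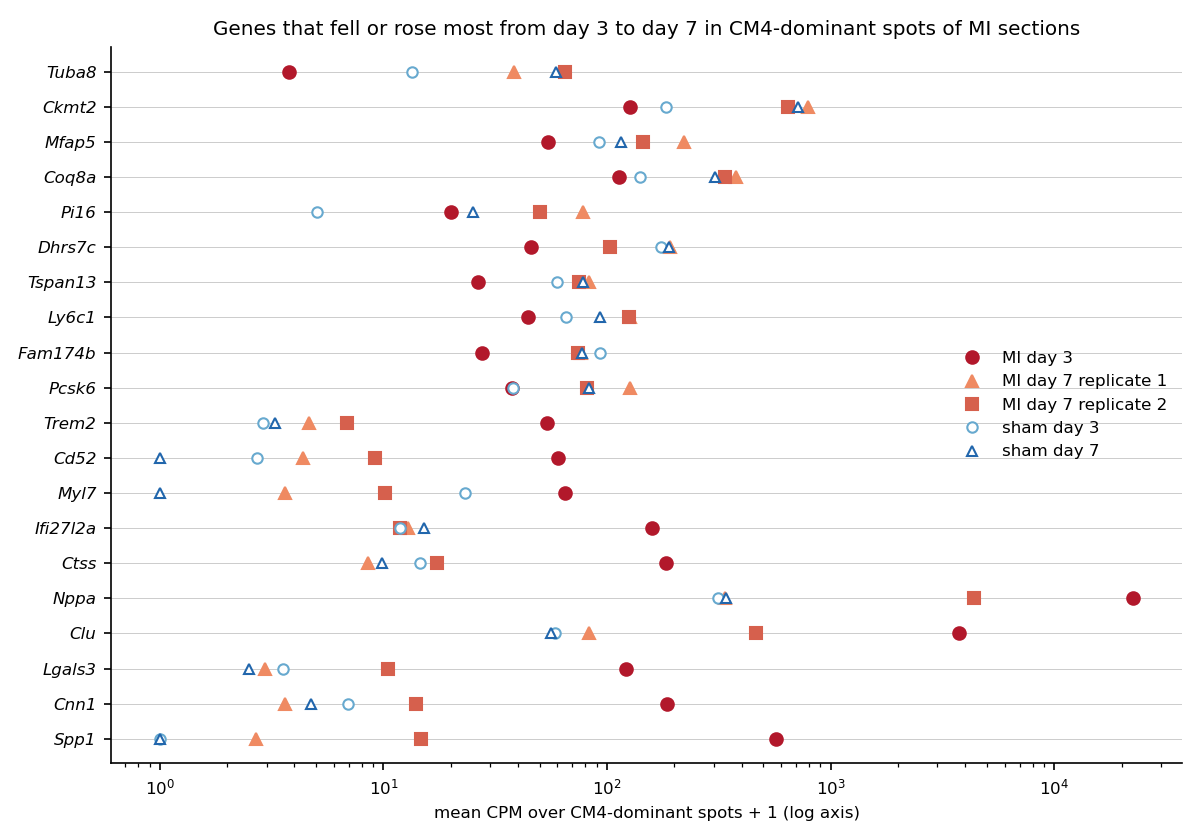
Mean CPM + 1 (log axis) in CM4-dominant spots of each section, for the 10 genes that rose most and the 10 that fell most from day 3 to day 7 in MI sections at 50 CPM or more. Spp1 was at 568 CPM at day 3 and at 1.70 and 13.8 CPM at day 7; Ckmt2 was at 126 CPM and at 795 and 645 CPM.

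The distance between CM4-dominant and other spots of a section was itself compared, which removes what shifts a whole section. The score that chose the members was built from the same values in every section, so these p-values compare sections for a difference that the choice of members set in part, above all for the label genes. Between days, 43 of 13455 genes fell in this difference (0.320%) and 35 rose (0.260%), and 46 fell and 24 rose under median-of-ratios scaling. The spread of this fit was pooled over genes with an infinite prior, so a gene whose day 7 replicates differed, such as Acta1 at 0.13 and 1.19, still passed. The label genes Acta1 (1.51 lower at day 7) and Clu (1.33 lower) set members apart less at day 7 than in the single day 3 section. So did Xirp2 (1.61 lower), Cnn1 (2.19 lower), Nppb (0.87 lower) and Ankrd1 (0.79 lower). Of these, Ankrd1 lost its call with sums over spots (adjusted p = 0.0551), and the other five kept theirs in all 10 refits. For Nppa the change of the difference was -0.15 ± 0.21 (adjusted p = 0.905). The cell cycle gene Cdc20, an activator of mitotic exit, rose from -0.48 to 0.34 and 0.69 (change 1.00, adjusted p = 0.0323), 1 of 20 cell cycle genes.

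Between MI and sham, 27 genes had a larger difference in MI (0.201%) and 11 a smaller or more negative one (0.0818%), and 6 and 15 under median-of-ratios scaling, which moved the median of all genes from 0.20 to 0.01. Nppb (1.49 ± 0.21, SE, adjusted p = 0.000839) and Nppa (1.46 ± 0.20, adjusted p = 0.000783) were higher, since Nppa differed by 1.00, 0.52 and 1.18 in MI and by -1.19 and -0.06 in sham. For the label genes Nppa, Clu and Acta2 the choice of members set the difference in part, so their p-values carry that limit. Ankrd1 (0.97), Xirp2 (1.26), Nmrk2 (1.05) and Clu (1.06) also passed, so that 4 of 16 fetal and stress genes did. Of the smooth muscle genes 5 of 13 passed, among them Acta2 (0.66, adjusted p = 0.0469) and Myh11 (2.09), where the sham difference of Acta2 was -0.60 and -0.44. Calls in this contrast were kept in 5 of 13 refits for Acta2, 6 for Xirp2 and Nmrk2, and 8 for Myh11, Ankrd1 and Clu. Without either day 3 section the values were 0.91 for Nppa, 0.84 for Nppb, 0.49 for Xirp2, 0.45 for Clu and 0.41 for Acta2. All 4 haemoglobin genes were lower in this contrast, beside the high haemoglobin of sham CM4-dominant spots given above. With spots on the outline left out, the count of genes with a larger difference was 1, and Nppb (1.16, adjusted p = 0.0608) and Nppa (0.87, adjusted p = 0.117) no longer passed, the only 1 of 13 refits in which they did not. Without mitochondrial and haemoglobin genes the count was 10. The haemoglobin genes passed in all 12 of their refits. The count was 2 without MI day 7 replicate 1, 43 without replicate 2, 165 without MI day 3, 149 without sham day 3 and 506 without sham day 7.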

How the data were processed

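Reads had been aligned to the mouse genome (mm10, GRCm38) with Space Ranger, per the submitters' processing notes, and spots processed in Seurat with sctransform. Of the gene tables used here, the one deposited for sham day 3 holds raw UMI counts. For the other 4 sections the authors deposited counts corrected by sctransform and rounded to whole numbers, which are treated here as a score. The deposited cell type scores are a fraction from 0 to 1, made by the authors by label transfer, and the deposited spot positions (the other unit) are in image pixels.

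Each spot was scaled to CPM over the 13711 genes listed once in all 5 tables, and CM4-dominant, other non-CM1 and CM1-dominant spots were averaged per section, so that the section was the replicate. Differences are on the log2(CPM + 1) scale, which understates changes of low genes. A gene entered a fit if 2 or more profiles reached a mean of 1 CPM. Fits used limma 3.58.1 (R 4.3.3) with a mean-variance trend, two-sided, Benjamini-Hochberg adjusted, threshold 0.05. CM4 against other spots was described without a test, because the scores came from the same values. Neighbours lay within 1.25 spot spacings. Positions were compared by exact permutation tests (scipy 1.17.1). No count test was run, since 4 of 5 tables were not raw counts.

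Named genes were those at 50 CPM or more with the largest changes past the threshold (10 per direction, 5 for contrasts of differences), the label genes, markers, Nfe2l1 and list members. Some of these genes are not reported here. The members and lists were chosen with earlier results of these data known. The models were tested on simulated data. Promoters are from RefSeq (GRCm38.p6).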

Additional observations from a re-analysis of the deposited data

Results flagged for a closer look

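Differences between CM4-dominant and other non-CM1 spots that themselves differed between days or between MI and sham (limma, adjusted p below the threshold) were listed for a second look. The choice of members set such differences in part, above all for the label genes, here Nppa, Acta1 and Clu. From day 3 to day 7 after MI, the log2 difference changed by -2.19 for Cnn1, -1.66 for Timp1, -1.61 for Xirp2, -1.51 for Acta1 and -1.33 for Clu. It changed by 1.37 for Hba-a1, 1.21 for Hbb-bt, 1.05 for the endothelial receptor Tie1 and 1.02 for Rrm2, a subunit of ribonucleotide reductase. All of these rest on a single day 3 section.

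Between MI and sham, the log2 difference was larger in MI by 1.49 for Nppb, 1.46 for Nppa, 1.39 for Cthrc1, 1.26 for Xirp2 and 1.06 for Clu. Without either day 3 section the values were 0.84, 0.91, 0.59, 0.49 and 0.45 in the same order, and Cthrc1, Xirp2 and Clu then lost their calls. It was changed by -2.81 for C3, -2.16 for Hba-a1, -2.05 for Hbb-bt, -1.81 for Hbb-bs and -1.68 for Hba-a2. With edge spots left out, the value of C3 turned to 0.68 (adjusted p = 0.681, limma). C3 was at 5.30 CPM in sham day 7 CM4-dominant spots and 0.516 CPM in the other spots there. Haemoglobin took 1.99% of the values of those CM4-dominant spots, and 43.1% of them lay on the outline of the section. With edge spots left out, the contrast was -1.58 for Hba-a1 and -1.54 for Hbb-bt, and both kept their call.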

How the results depend on the processing

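Counts of genes past the threshold depended on the settings. Alternatives that moved a count by over 1.5 times are given here. For MI against sham, the 78 genes higher became 32 with median-of-ratios scaling, 16 without mitochondrial and haemoglobin genes, 33 with a pseudocount of 5 CPM, 13 with a CM4 score of at least 0.5, 29 with sums over spots and 14 without edge spots, and the 4 lower became 8 with median-of-ratios scaling, 2 without mitochondrial and haemoglobin genes and 0 without edge spots (limma; 146 at an unadjusted p under 0.05). For day 7 against day 3, the 89 higher became 59 with median-of-ratios scaling, 5 without mitochondrial and haemoglobin genes, 1 with no filter, 0 with the score minimum (limma; 598 at an unadjusted p under 0.05), 181 with sums and 194 without edge spots, and the 215 lower became 73, 6, 1, 0 (989 unadjusted), 457 and 529 in the same order, and 423 with the larger pseudocount. For the change of the difference with day, the 35 higher became 102 with the score minimum, 13 with sums and 241 against all other spots, and the 43 lower became 28, 19 and 129. For its change with MI, the 27 higher became 6 with median-of-ratios scaling, 10 without mitochondrial and haemoglobin genes, 10 with the larger pseudocount, 132 with sums, 1 without edge spots and 532 against all other spots, and the 11 lower became 6 with the larger pseudocount, 6 with the score minimum, 20 with sums, 5 without edge spots and 35 against all other spots. In the description of spot kinds, the 0 higher became 1 against all other spots and 15 at a difference of at least 0.58, and the 8 lower became 25 with the score minimum, 0 against all other spots, 2 with the larger pseudocount and 80 at 0.58. The causes were not tested.

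With 1 section left out, genes higher in MI than sham numbered 2 (without day 7 replicate 2) to 694 (without sham day 7) and lower 1 to 79. Day 7 against day 3 gave 107 to 144 higher and 277 to 340 lower, and its difference 32 to 34 and 43 to 44, with a sham section left out in each case, since no MI section could be. Changes of the difference with MI gave 2 (without replicate 1) to 506 (without sham day 7) higher and 4 to 80 lower. The description gave 0 to 27 higher and 13 to 108 lower, the upper ends without day 7 replicate 1. A lone section was assumed to vary like the others.

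The MI minus sham difference in CM4-dominant neighbours was 19.5 percentage points, 15.2 with a second ring, 15.3 with the score minimum and 14.3 to 24.8 with 1 section left out. The largest patch difference was 48.4, 27.8 with the score minimum and 39.7 to 53.5 with 1 section left out. The FB share difference of outside neighbours was -10.1, -3.51 with a second ring and -5.43 to -13.0 with 1 section left out. The outline share difference was -40.5, and -56.7 with the score minimum. The bordering share difference was -9.28, -2.55 with a second ring and -2.13 with the score minimum. C3 in the contrast of differences with MI reversed from -2.81 to 0.68 with edge spots left out. Named genes kept their call in 125 of 238 refits for MI against sham, 229 of 341 for day, 161 of 177 and 167 of 256 for the changes of the difference with day and with MI. No paired analysis was possible because the surgery and day groups share only 1 replicate number. CM4-dominant and other spots were compared within each section in the description of spot kinds and in the contrasts of differences. The tests of MI against sham and of day within CM4-dominant spots compared sections without such a reference.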
